A study of Mus musculus with 3 samples.

Results

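The killer lectin-like receptors are cell-surface proteins of natural killer (NK) cells and of some T cells, and 8 of their genes were followed in mouse blood. The members were taken by symbol from the 32285 genes listed in the files: Klrd1, Klrc1, Klrc2, Klrk1, Klrg1, Klrb1c, Klrb1f and Klre1. All 8 had UMIs in NK, CD8 T and gamma-delta T cells of every library. The data were droplet single-cell RNA counts of peripheral blood mononuclear cells from C57BL/6 mice, in which each unique molecular identifier (UMI) marks 1 captured RNA molecule. There were 3 groups of 1 library each, all dosed for 1 month: a young and an aged group that received PBS, and a second aged group (aged+AA) that received AA. AA is ascorbic acid by the series title, and the labels give neither ages in months nor the number of mice behind a library. With 1 library per group no test could be made, so differences are between libraries, and every 95% interval covers counting error only. Values in a row are given in the order young, aged, aged+AA.

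Klrd1 encodes CD94, which pairs at the cell surface with an NKG2 chain: NKG2A, encoded by Klrc1, inhibits the cell, and NKG2C, encoded by Klrc2, activates it, both on binding the class Ib molecule Qa-1. NKG2D, encoded by Klrk1, activates the cell through the adaptors DAP10 and DAP12 when it meets stress-induced ligands. Klrg1 encodes an inhibitory cadherin receptor of mature NK cells and effector T cells, Klrb1c the NK1.1 antigen, Klrb1f the related receptor NKR-P1F, and Klre1 a receptor that pairs with the products of Klri1 or Klri2. In CD8 T cells such receptors are known from antigen-experienced cells and are mostly absent from naive ones.

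The genes lie on chromosome 6, and all are protein-coding genes of the GENCODE M21 annotation of GRCm38. Klrd1 (chr6:129591782-129598775) and Klre1 (chr6:129577905-129585827) are on the plus strand, and Klrk1 (chr6:129610323-129623864), Klrc2 (chr6:129647496-129660689) and Klrc1 (chr6:129666015-129678973) on the minus strand, all within 101 kb. Klrb1f (chr6:129045901-129057464, plus) and Klrb1c (chr6:128778485-128789215, minus) are in the same stretch of 900.5 kb, and Klrg1 (chr6:122270596-122282882, minus) lies apart from it. Some neighbours are close copies. The last 500 bases of Klrc1 and Klrc2 transcripts share an identical run of 128 bases, those of Klrc2 and Klrc3 one of 108, and those of Klrb1c and Klrb1a one of 108, so the split of UMIs within these pairs is uncertain. Klrc3 itself had 7 to 12 UMIs in the NK cells of a library. Klrb1c overlaps Gm44511 on its own strand, and Klrb1f overlaps Gm43992 and Gm44000 on the other.

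Promoter windows of 300 bases, 250 before and 50 after the gene's start, were available from RefSeq (GRCm38.p6) for 6 of the 8 members. The start used is the RefSeq one. For Klrc2, Klre1 and Klrb1c it lies inside the GENCODE gene given above, and the windows of Klre1 and Klrb1c lie wholly inside that gene. Those of Klrc1, Klrc2, Klrk1 and Klre1 are shown because these genes had low RNA levels in young CD8 T cells and higher ones in both aged libraries. Each runs 5′ to 3′ on the gene's strand, and capitals mark matches to 2 motifs on either strand: TGTGGT (or ACCACA), the core bound by RUNX factors, and TGANTCA, the core bound by AP-1. The windows are chr6:129678924-129679223 (minus) for Klrc1, chr6:129660547-129660846 (minus) for Klrc2, chr6:129623815-129624114 (minus) for Klrk1 and chr6:129577963-129578262 (plus) for Klre1.
Klrc1: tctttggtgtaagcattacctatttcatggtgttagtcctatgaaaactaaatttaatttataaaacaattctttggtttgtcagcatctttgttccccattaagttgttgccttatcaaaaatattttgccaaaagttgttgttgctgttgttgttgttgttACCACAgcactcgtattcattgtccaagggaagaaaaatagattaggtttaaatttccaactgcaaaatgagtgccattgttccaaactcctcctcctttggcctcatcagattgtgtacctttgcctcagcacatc
Klrc2: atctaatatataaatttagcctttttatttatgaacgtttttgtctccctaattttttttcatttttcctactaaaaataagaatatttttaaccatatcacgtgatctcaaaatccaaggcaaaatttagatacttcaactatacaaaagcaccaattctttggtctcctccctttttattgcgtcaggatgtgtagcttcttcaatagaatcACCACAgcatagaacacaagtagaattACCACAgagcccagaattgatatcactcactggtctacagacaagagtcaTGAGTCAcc
Klrk1: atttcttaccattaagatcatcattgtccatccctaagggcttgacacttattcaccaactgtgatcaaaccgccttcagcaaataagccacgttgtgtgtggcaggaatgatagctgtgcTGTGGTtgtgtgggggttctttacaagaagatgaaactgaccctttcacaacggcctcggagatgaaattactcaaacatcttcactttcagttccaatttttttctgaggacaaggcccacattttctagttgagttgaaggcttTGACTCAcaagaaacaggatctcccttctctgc
Klre1: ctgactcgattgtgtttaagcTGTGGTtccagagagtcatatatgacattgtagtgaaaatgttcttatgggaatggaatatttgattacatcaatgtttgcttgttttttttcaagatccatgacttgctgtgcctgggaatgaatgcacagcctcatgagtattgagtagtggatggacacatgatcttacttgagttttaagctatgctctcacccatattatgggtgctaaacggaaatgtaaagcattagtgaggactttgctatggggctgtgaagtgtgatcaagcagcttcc
The RUNX core occurred in each of the 4 windows shown: counted from the start site, its first base was at -87 in Klrc1, at -36 and -9 in Klrc2, at -129 in Klrk1 and at -229 in Klre1. A second RefSeq window of Klre1 (chr6:129578036-129578335) held no match to it. Of the 2 windows not shown, that of Klrb1c also held the RUNX core, at -89, and that of Klrb1f did not. This core was present in 16.8% of the 32851 RefSeq promoter windows of this length. The AP-1 core occurred in Klrc2 and Klrk1 and in 7.81% of all windows. The T-box core GGTGTG (or CACACC) matched none of these 4 windows, occurred in Klrb1f at -123 and -58, and was present in 19.0% of all windows. The 4 windows were 45.2% to 49.7% identical to one another, and a second Klrc2 window was 98.3% identical to that of Klrc3. A match describes the letters only.

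Cells were gated on marker UMIs, none of them from a member gene, among 8778 young, 9757 aged and 11042 aged+AA cells. NK cells (no CD3 or Cd8b1 RNA, with Nkg7 and Tyrobp) numbered 307, 237 and 164, CD8 T cells 1736, 790 and 1999, and gamma-delta T cells 89, 42 and 79. Median depth was 3038 to 3412.5 UMIs per NK cell, 5987 to 6658 per CD8 T cell and 4263 to 4511 per gamma-delta T cell. All 8 NK markers used as a check were present in the NK cells, among them Ncr1 at 574, 580 and 830 UMIs per 1000000 UMIs of the gated cells (CPM). In CD8 T cells Ncr1 was near 0 (12, 4 and 8 UMIs). The aged gamma-delta T cells went against their label in part, with Ncr1 at 138 CPM against 24.0 and 7.35 in the other libraries. Pairs of libraries shared 22 to 29 cell barcodes, 0.199% to 0.297% of a library's cells. Haemoglobin RNA made up 3.45%, 8.48% and 8.07% of the UMIs of NK cells and 2.16%, 6.35% and 2.53% of those of CD8 T cells.

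Each member had its highest level in NK cells. In the young library the Klrd1 level was 1093 CPM in NK cells, 276 in gamma-delta T cells, 247 in CD8 T cells, 31.0 in CD4 T cells and 2.74 in B cells. Gamma-delta and CD8 T cells were neighbours in that order whose intervals overlapped (232 to 326 and 238 to 256 CPM). The Klrk1 level ran in the same order, at 775, 122, 7.79, 3.61 and 0.317 CPM. Klrd1 RNA was thus shared by NK cells and both kinds of T cell, while Klrk1 RNA was scarce in young CD8 T cells.

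**Figure D1:**
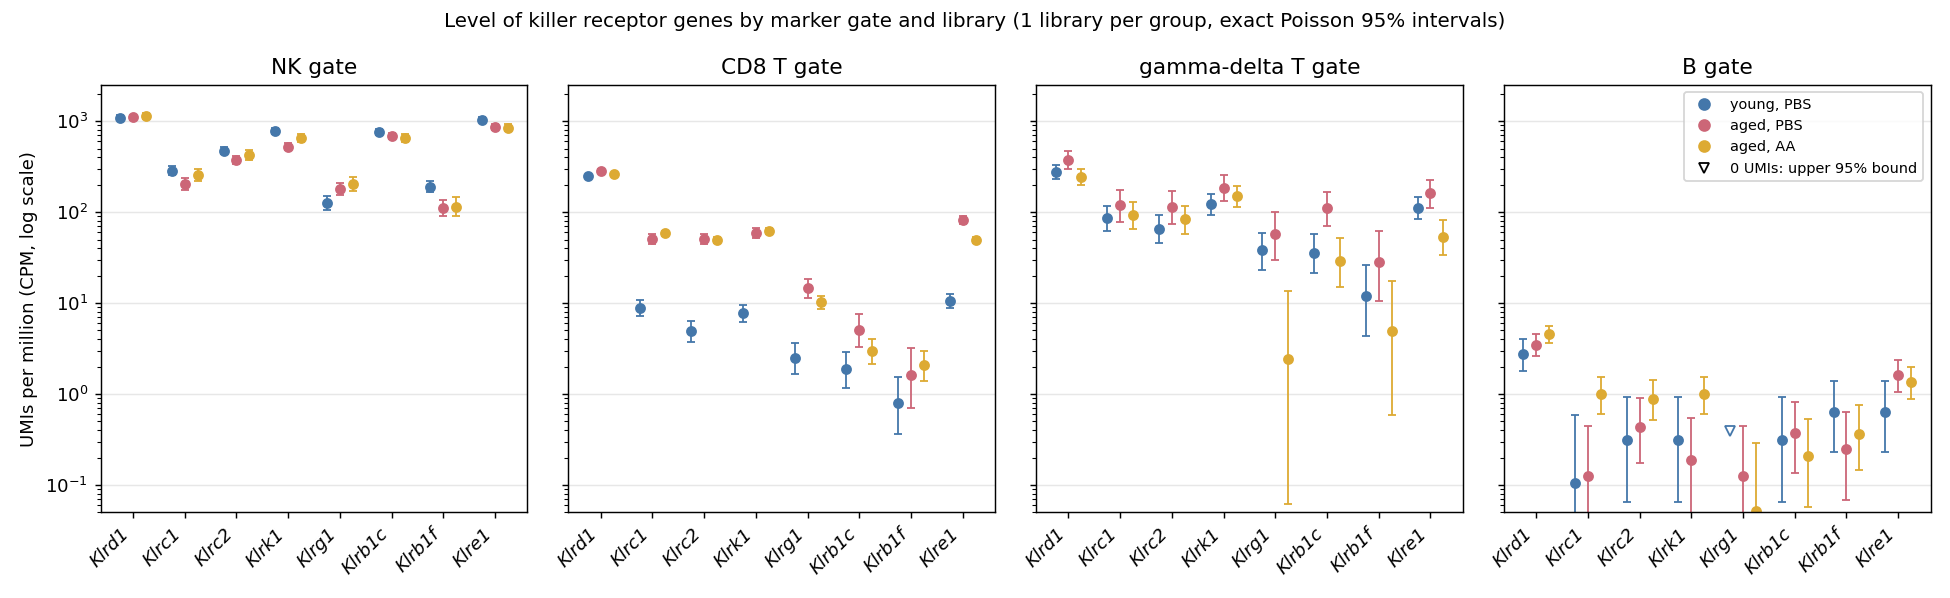
Level of each member in CPM (log scale) in NK, CD8 T, gamma-delta T and B cells, with 1 point per library and exact Poisson 95% intervals; open triangles stand for 0 UMIs and mark the upper bound. NK levels run from 111 to 1140 CPM, B cells lie at or below 4.56 CPM, and in CD8 T cells the young points of Klrc1, Klrc2, Klrk1, Klrg1 and Klre1 lie below both aged points.

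In NK cells CD94 RNA was level across the libraries, while the other receptor genes were lower in aged than in young blood, apart from Klrg1, which was higher. The Klrd1 level was 1093, 1108 and 1140 CPM. The 3 intervals overlapped, and the aged to young ratio was 1.01 (0.931 to 1.10). Its NKG2 partners were lower in the aged library in CPM. Inhibitory Klrc1 stood at 286, 204 and 256 CPM, with an aged to young ratio of 0.712 (0.591 to 0.856). That interval takes UMIs as independent and leaves out their clumping within cells. The share of NK cells with a Klrc1 UMI was 30.9%, 35.4% and 37.2%. With every cell thinned to 2000 UMIs it was 25.1%, 28.1% and 30.8%, and at 1000 UMIs 20.6%, 12.8% and 17.7%. The order of the shares thus depended on depth, and the young and aged intervals overlapped at each. Activating Klrc2 stood at 475, 372 and 426 CPM, with a ratio of 0.784 (0.682 to 0.900). In CPM, RNA of both NKG2 chains was thus lowest in the aged library, and the aged+AA value lay between the others. The aged and aged+AA intervals overlapped for Klrc1 (176 to 235 and 218 to 299 CPM) and for Klrc2 (334 to 413 and 376 to 481 CPM).

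NKG2D (Klrk1) showed the same order, at 775, 524 and 649 CPM. The aged library was lowest, at a ratio of 0.675 (0.603 to 0.756) to the young, just short of 1.5-fold. Klre1 was at 1038, 859 and 843 CPM and Klrb1c (NK1.1) at 764, 687 and 649 CPM, with aged to young ratios of 0.828 (0.755 to 0.908) and 0.899 (0.809 to 0.998). For these a young value stood above both aged values. Klrb1f (NKR-P1F) was at 190, 111 and 115 CPM, a ratio of 0.582 (0.455 to 0.741). The inhibitory receptor gene Klrg1 went the other way, at 126, 180 and 204 CPM, with a ratio of 1.43 (1.13 to 1.81).

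All 8 members had at least 50 UMIs over the 2 libraries in NK cells, the minimum for a call. Called here means a CPM ratio of at least 1.5 in either direction. Klrb1f alone was called lower in the aged library, 1 of 8 members where 8.62% of 4685 genes were called lower, and none was called higher, where 10.3% of the genes were. The median log2 ratio of the members was -0.31, against -0.00499 over all genes tested. The aged NK cells also held more RNA of the 4 genes shared with type 1 innate lymphoid cells (Cd7, Itga1, Tnfsf10 and Il7r), summing to 219, 461 and 313 CPM, and of 3 neutrophil genes, at 5.69, 229 and 24.3 CPM, and their part in these ratios was not tested. With haemoglobin genes left out of the totals the 8 ratios had the same direction, and Klrg1, at a log2 ratio of 0.59, was called higher.

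Between the aged+AA and the aged library, NK cells differed in fewer members. Klrk1 was higher with AA by a ratio of 1.24 (1.08 to 1.42) and Klrc1 by 1.26 (1.01 to 1.56). The intervals of the other 6 ratios held 1, from 0.944 (0.831 to 1.07) for Klrb1c to 1.15 (0.973 to 1.35) for Klrc2. No member was called, where 5.03% of 3974 genes were called higher and 9.03% lower. The median log2 ratio of the members was 0.12, against -0.03 for all genes. The 2 comparisons share the aged library, so a low or high aged value moves both.

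Detection per cell differed among the NK members. With every cell thinned to 1000 UMIs, Klrd1 was detected in 60.5%, 64.5% and 62.2% of NK cells, against 0.169%, 0.296% and 0.448% of B cells. The B gate took only cells without Nkg7 or CD3 RNA, which partly leaves out cells with stray NK or T-cell RNA. Its values are thus a low estimate of free RNA. Without thinning the NK shares were 91.9%, 93.2% and 88.4%. Klrc1 was found in fewer cells: 69.1%, 64.6% and 62.8% of NK cells had no Klrc1 UMI, and cells with one held 3.18, 2.27 and 2.59 on average, against 4.09, 4.70 and 4.85 for Klrd1. Of the 307 young NK cells 49 had 3 or more Klrc1 UMIs, 21 had 2 and 25 had 1. Klrg1 was also absent from most NK cells (71.0%, 57.8% and 64.0%), and cells with 3 or more UMIs made up 2.28%, 7.17% and 9.76%.

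**Figure D2:**
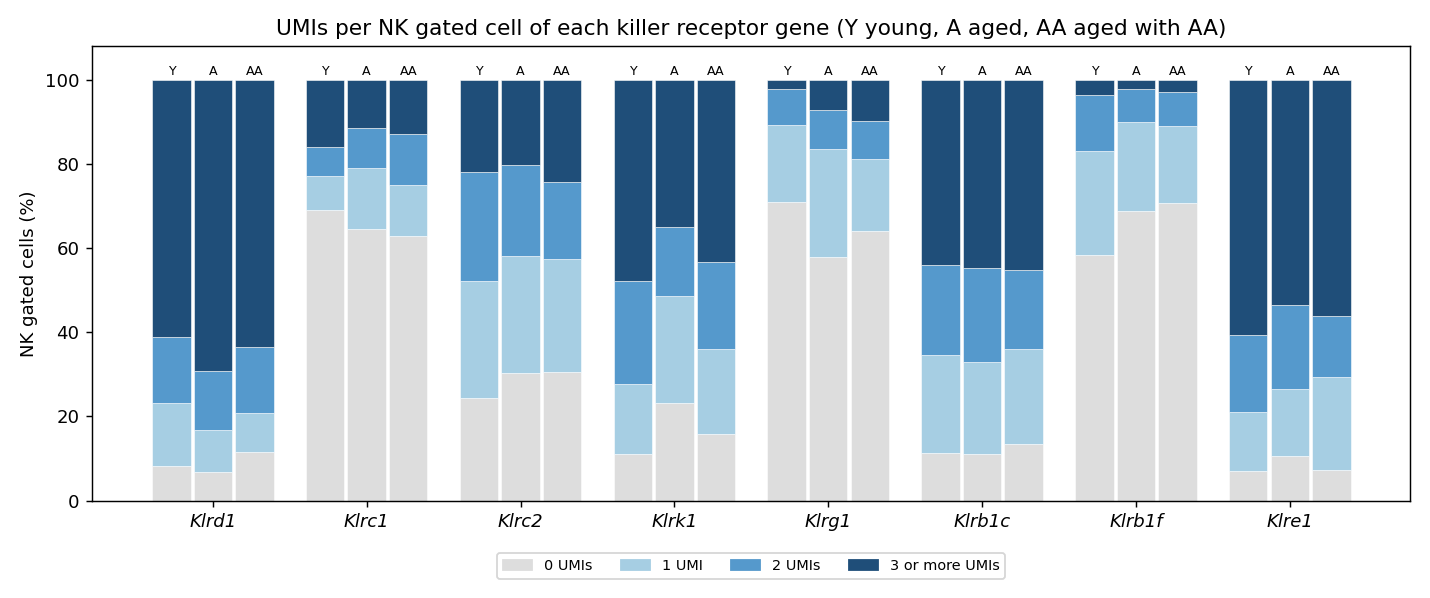
Share of NK cells (%) with 0, 1, 2 and 3 or more UMIs of each member, with 1 bar per library (Y young, A aged, AA aged with AA; 307, 237 and 164 cells). Klrd1 and Klre1 fill most cells, while Klrc1 is absent from 62.8% to 69.1% of cells although 11.4% to 16.0% hold 3 or more UMIs.

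Klrc2 was found in NK cells with and without a Klrc1 UMI, in shares whose intervals overlapped in each library. In the aged library 70.2% of NK cells with Klrc1 also had Klrc2, against 69.3% of those without Klrc1. In the young library the values were 69.5% (59.2% to 78.5%) and 78.3% (72.1% to 83.7%), and in the aged+AA library 60.7% (47.3% to 72.9%) and 74.8% (65.2% to 82.8%). Most NK cells with RNA for the inhibitory partner of CD94 thus also had RNA for the activating one, as most NK cells did, within the uncertainty of their shared 3′ sequence.

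Cd27, a receptor lost as mouse NK cells mature, divided the NK cells into 30, 27 and 25 cells with its RNA and 277, 210 and 139 without. Median depth was 3368, 4995 and 3887 UMIs in the first group and 2975, 3175 and 3371 in the second. Cells without Cd27 RNA are those with none detected at this depth. In the second group Klrg1 stood at 126, 204 and 237 CPM, an aged to young ratio of 1.61 (1.27 to 2.06). In cells with Cd27 RNA it stood at 124 (69.3 to 204), 43.5 (15.9 to 94.6) and 39.3 (10.7 to 101) CPM on 15, 6 and 4 UMIs. The young library thus had similar Klrg1 levels in both fractions, and in both aged libraries the level was higher in the cells without Cd27 RNA. Klrk1 was lower in the aged library in cells without Cd27 RNA too (ratio 0.667, 0.590 to 0.754), as was Klrb1f (0.546, 0.414 to 0.717). Of all 4270 genes there 9.81% were called higher in the aged library, among them Klrg1, and 8.83% lower, among them Klrb1f. Between aged+AA and aged no member was called, where 4.56% of genes were called higher and 9.93% lower.

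In CD8 T cells the NKG2 genes were rare in the young library and several times higher in both aged ones. Klrc1 was at 8.87, 50.3 and 58.4 CPM (99, 247 and 810 UMIs), an aged to young ratio of 5.67 (4.47 to 7.23). Klrc2 was at 4.93, 50.5 and 49.5 CPM, a ratio of 10.2 (7.63 to 14.0). Both partners of CD94 were low in the young library only, and both aged libraries stood close together. The activating receptor gene Klrk1 was at 7.79, 59.0 and 62.1 CPM, a ratio of 7.58 (5.94 to 9.74). Klre1 was at 10.6, 81.4 and 48.9 CPM, a ratio of 7.71 (6.26 to 9.54). Klrg1, a marker of effector T cells, was at 2.51, 14.7 and 10.2 CPM, a ratio of 5.84 (3.73 to 9.40).

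Klrd1 did not follow its partners. It was already abundant in young CD8 T cells, at 247, 284 and 259 CPM, and its aged to young ratio of 1.15 (1.08 to 1.23) changed sides with the scaling: its log2 ratio of 0.20 became -0.03 with totals without ribosomal protein and mitochondrial genes and -0.07 relative to the median of all genes. Before thinning, 68.3%, 65.2% and 71.9% of CD8 T cells had a Klrd1 UMI, and after thinning 21.4%, 22.5% and 20.8%. Klrc2 was detected in 0.173%, 5.70% and 4.10% of thinned CD8 T cells, and in 0.0423%, 0.0494% and 0.0640% of thinned B cells. The NK-type genes Klrb1c and Klrb1f stayed scarce in CD8 T cells, with 21, 25 and 41 UMIs and 9, 8 and 29 UMIs.

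Klrb1c and Klrb1f had fewer than 50 UMIs over the young and aged CD8 T cells, which left 6 members for a call. Of these 5 were called higher in the aged library, all but Klrd1, and none lower; of all 8909 genes with enough UMIs 24.2% were called higher and 4.16% lower. The median log2 ratio of the 6 was 2.73, against 0.27 for all genes, which is the shift of the profile as a whole. Klrc1, Klrc2, Klrk1 and Klre1 were higher in the aged library in CD8 T cells and lower in NK cells. This difference in direction was not tested. Markers of other cells moved with the result: the 3 neutrophil genes summed to 4.39, 158 and 22.0 CPM in CD8 T cells, Lyz2 stood at 0.985, 81.8 and 4.90 CPM, and the 8 NK markers summed to 592, 1346 and 1080 CPM. Among the NK markers Ncr1 was at 1.07 (0.555 to 1.88), 0.814 (0.222 to 2.08) and 0.577 (0.249 to 1.14) CPM, with overlapping intervals. The part of these RNAs in the result was not tested.

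**Figure D3:**
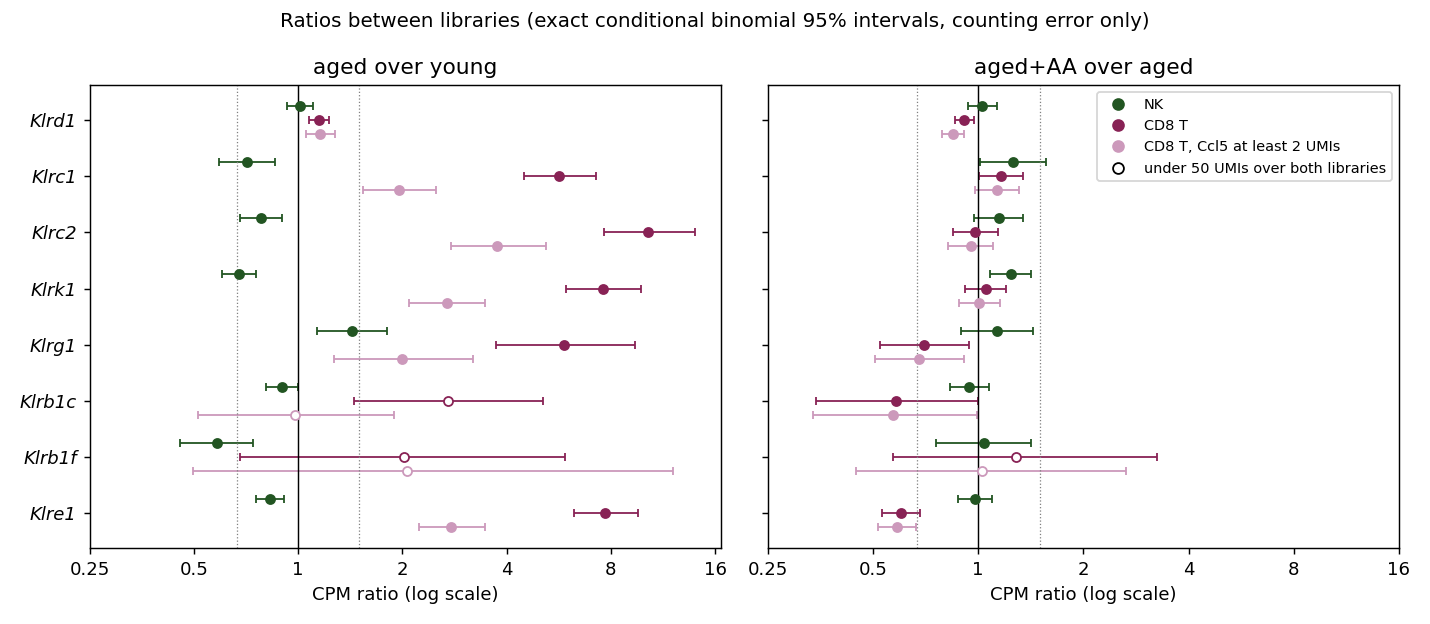
CPM ratio of each member (log scale) for aged over young and aged+AA over aged, in NK cells, CD8 T cells and CD8 T cells with at least 2 Ccl5 UMIs, with exact conditional binomial 95% intervals; dotted lines mark 1.5-fold and open points have under 50 UMIs. In the first comparison Klrc1, Klrc2, Klrk1 and Klre1 lie left of 1 in NK cells (0.675 to 0.828) and right of it in CD8 T cells (5.67 to 10.2).

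Ccl5, a chemokine gene expressed by memory and effector CD8 T cells, marked a fraction of the CD8 T cells that held nearly all NKG2A and NKG2C RNA. At least 2 Ccl5 UMIs were found in 275 of 1736 (15.8%), 471 of 790 (59.6%) and 1102 of 1999 CD8 T cells (55.1%). They held 97 of 99, 244 of 247 and 805 of 810 Klrc1 UMIs, although only 15.6%, 31.0% and 36.6% of them had a Klrc1 UMI. In the cells without Ccl5 RNA (1340, 242 and 674 cells), Klrc1 had 0, 2 and 4 UMIs, Klrc2 3, 0 and 1, and Klrg1 none in any library. Klrd1 was the exception, at 232 (222 to 243), 180 (160 to 202) and 198 (185 to 212) CPM in the cells without Ccl5 RNA. It was higher in the cells with it, at 309 (286 to 333), 359 (337 to 381) and 303 (292 to 316) CPM. CD94 RNA thus extended over the cells without Ccl5 RNA, and RNA of its NKG2 partners hardly did.

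For Klrc1, Klrc2, Klrk1, Klrg1 and Klre1 the aged to young ratios were smaller within this fraction than over all CD8 T cells. Within the cells with at least 2 Ccl5 UMIs, Klrc1 stood at 44.0, 85.9 and 97.2 CPM, an aged to young ratio of 1.95 (1.54 to 2.49). Klrc2 stood at 23.1, 86.9 and 82.8 CPM, a ratio of 3.76 (2.77 to 5.18). Klrk1 stood at 37.7, 101 and 102 CPM, a ratio of 2.68 (2.09 to 3.47). The young library was lowest for each of these. Klre1 had a ratio of 2.77 (2.24 to 3.45) and Klrg1 one of 1.99 (1.27 to 3.21) there, and Klrd1 one of 1.16 (1.05 to 1.28), where the median log2 ratio of all genes was 0.29. In this fraction 5 of 6 members were called higher and none lower, where 27.2% and 3.04% of 6683 genes were. In the cells without Ccl5 RNA, Klrd1 went the other way, with an aged to young ratio of 0.776 (0.682 to 0.879), and was the 1 member with enough UMIs. It was not called, where 16.5% of 7758 genes were called higher and 5.99% lower, nor between aged+AA and aged (5.97% and 8.49%). These ratios were added after the levels had been seen, and the median depth of the cells with Ccl5 RNA differed (7769, 5986 and 7410 UMIs). The levels depend on the Ccl5 limit. With at least 1 Ccl5 UMI, 14 member levels moved beyond their counting interval and 10 did not. Klrc2, for example, then stood at 17.2, 74.3 and 70.4 CPM.

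**Figure D4:**
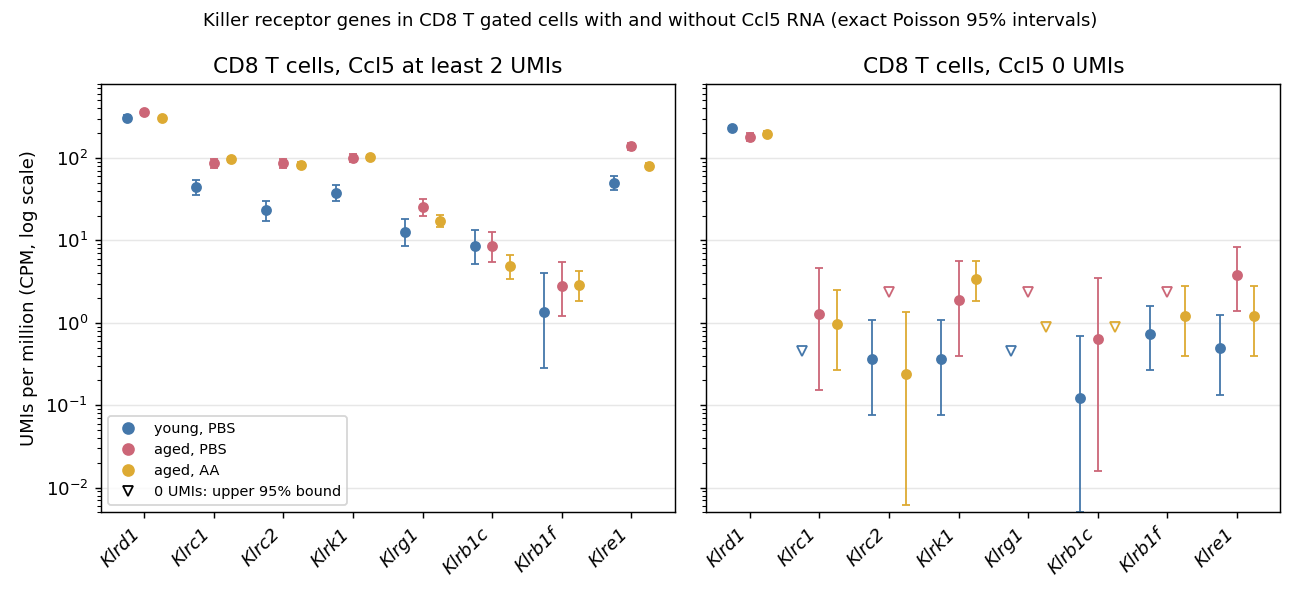
Level of each member in CPM (log scale) in CD8 T cells with at least 2 Ccl5 UMIs and with 0, with 1 point per library and exact Poisson 95% intervals; open triangles stand for 0 UMIs. Klrd1 lies at 303 to 359 CPM with Ccl5 RNA and at 180 to 232 CPM without it, while every other member is at or below 3.81 CPM in the cells without Ccl5 RNA.

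Between the aged+AA and the aged library, CD8 T cells differed little in summed NKG2 levels and more in other members. The aged+AA to aged ratio was 1.16 (1.01 to 1.35) for Klrc1, 0.981 (0.847 to 1.14) for Klrc2 and 1.05 (0.920 to 1.21) for Klrk1. Averaged per cell instead of summed, the log2 ratios were -0.04, -0.40 and -0.28, so the sign for Klrc1 and Klrk1 depends on the weighting of cells. Klre1 was lower, at 48.9 against 81.4 CPM, a ratio of 0.600 (0.530 to 0.681). Klrb1c was lower too, at 2.96 against 5.09 CPM on 41 and 25 UMIs (ratio 0.581, 0.345 to 0.997). Klrg1 had a ratio of 0.699 (0.523 to 0.941) and Klrd1 one of 0.912 (0.857 to 0.971). Klre1 and Klrb1c were the 2 members called lower, of 7 with at least 50 UMIs, where 8.58% of 9290 genes were called lower. None was called higher, where 3.44% were. Within the cells with at least 2 Ccl5 UMIs the Klre1 ratio was 0.587 (0.517 to 0.666), so it was as low there. Klre1 and Klrb1c were again the 2 called lower, where 10.6% of 8470 genes were, with none called higher (3.38%). Tyrobp, a gene of myeloid and NK cells, had a ratio of 0.325 (0.248 to 0.424) in CD8 T cells, and its part in the Klre1 value was not tested.

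The CD94 heterodimer needs both RNAs in 1 cell. Of the CD8 T cells with a Klrd1 UMI, 58 of 1186 (4.89%), 154 of 515 (29.9%) and 447 of 1438 (31.1%) also had a Klrc1 or Klrc2 UMI. With cells thinned to 2000 UMIs the shares were 2.09% (1.12% to 3.55%), 22.9% (18.4% to 28.0%) and 20.1% (17.2% to 23.1%). In NK cells the unthinned shares were 85.8%, 82.8% and 86.2%. Most young CD8 T cells with CD94 RNA thus had no NKG2A or NKG2C RNA detectable at this depth, and the share with both was higher in both aged libraries. In the other direction, 90.6%, 81.5% and 86.0% of CD8 T cells with a Klrc1 or Klrc2 UMI had Klrd1.

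CD8 T cells with RNA of several members made up a larger share of both aged libraries than of the young one. The share expected from the detection of each member alone was not computed. At 1000 UMIs, 2 or more members were found in 1.27% (0.796% to 1.91%), 11.1% (9.03% to 13.5%) and 8.06% (6.90% to 9.34%) of CD8 T cells. NK cells stood far above, at 89.9%, 82.1% and 86.0%. Without thinning, the CD8 T shares were 6.22%, 34.1% and 32.6%. The median NK cell had UMIs of 5 of the 8 members in each library before thinning.

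Gamma-delta T cells (CD3 and Trdc RNA, no Cd4 or Cd8b1) held intermediate levels on few cells. Klrd1 was at 276, 377 and 242 CPM, Klrk1 at 122, 186 and 149 and Klrc1 at 85.9, 119 and 93.1 CPM. All 3 were highest in the aged library. That library's gate also held NK genes, however, with Fcer1g at 112, 677 and 108 CPM, Gzma at 933, 2293 and 17.1 CPM and the 8 NK markers summing to 1816, 4257 and 891 CPM. When cells with an Ncr1 UMI or at least 3 Fcer1g UMIs were left out (7, 11 and 6 cells), Klrd1 stood at 239, 238 and 176 CPM, Klrk1 at 108, 84.1 and 107 CPM and Klrc1 at 38.3, 70.1 and 82.6 CPM. The aged library was then highest in none of these, lowest in Klrk1, and still above the young library in Klrc1, on 10 and 17 UMIs.

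Of the 5 members with at least 50 UMIs in gamma-delta T cells, Klrc2 (1.74, 0.981 to 3.03) and Klrk1 (1.53, 0.994 to 2.32) were called higher in the aged than in the young library, where 12.8% of 1829 genes were called higher and 10.6% lower. Both intervals held 1. With the NK-gene cells left out only Klrd1 and Klrk1 had at least 50 UMIs, and Klrk1 was not called (log2 ratio -0.36). Klrc2, on too few UMIs for a call, had a log2 ratio of 0.22. Against the aged library, aged+AA cells had lower Klrd1 (ratio 0.644, 0.474 to 0.876) and Klre1 (0.332, 0.185 to 0.585), the 2 members called lower where 10.6% of 1607 genes were, and none was called higher, where 7.97% were. With those cells left out, Klrd1 was not called (log2 ratio -0.44), and Klre1, at -0.57, had too few UMIs for a call. Klrg1 had 19, 12 and 1 UMIs in gamma-delta T cells, and 9, 0 and 1 with the NK-gene cells left out.

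The adaptors that carry the signal were measured with the receptors. In NK cells 20 of the 22 adaptor and signalling genes had enough UMIs, and 4 were called higher and none lower in the aged library (10.3% and 8.62% of all genes): Lcp2 (ratio 2.10, 1.48 to 3.00), Ptpn6 (1.56, 1.12 to 2.19), Ptpn11 (1.55, 0.887 to 2.74) and Plcg2 (1.53, 1.02 to 2.29). Ptpn6 encodes SHP-1, the phosphatase recruited by inhibitory receptors such as NKG2A. Hcst, which encodes the DAP10 adaptor of NKG2D, was at 739, 598 and 585 CPM, with an aged to young ratio of 0.809 (0.725 to 0.903). It was lower in both aged libraries, as Klrk1 was. Tyrobp, which encodes DAP12 and was part of the NK gate, had a ratio of 0.972 (0.920 to 1.03). The interval of the aged to young ratio lay above 1 for 4 of the 20 genes and below 1 for 6. The list's median log2 ratio was 0.12.

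In CD8 T cells 10 of 18 such genes were called higher in the aged library and none lower, against 24.2% and 4.16% of all genes. Hcst was at 460, 598 and 533 CPM, a ratio of 1.30 (1.24 to 1.36). RNA of the DAP10 adaptor was thus present in the young library, where Klrk1 RNA was scarce. Tyrobp was at 4.57, 24.4 and 7.93 CPM and Fcer1g at 6.18, 31.8 and 13.1 CPM, both also myeloid genes. With AA, 3 of 20 adaptor and signalling genes were called lower in CD8 T cells and none higher (8.58% and 3.44% of all genes). They were Tyrobp, Fcer1g and Lcp2 (ratio 0.655, 0.582 to 0.738). In NK cells Lcp2 was the 1 gene of 20 called lower with AA (0.517, 0.337 to 0.775), where 9.03% of all genes were.

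Ligand genes were measured in the same cells. H2-T23, which encodes Qa-1, the ligand of CD94 with NKG2A or NKG2C, was at 354, 353 and 350 CPM in NK cells and 299, 329 and 321 CPM in CD8 T cells. Of the 15 ligand genes, 5 had enough UMIs in NK cells, where Clec2d (ratio 1.72, 1.11 to 2.69) was the 1 called higher in the aged library, against 10.3% of all genes. In CD8 T cells 2 of 7 were called higher, Clec2d (1.97, 1.62 to 2.39) and the NKG2D ligand gene Ulbp1 (1.77, 1.08 to 2.89), a share near the 24.2% of all genes. With AA none of 5 was called in NK cells, and 2 of 8 were called lower in CD8 T cells, Ulbp1 (0.598, 0.379 to 0.957) and Cdh1 (0.453, 0.260 to 0.798), a cadherin that Klrg1 binds, where 8.58% of all genes were.

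Among the other lectin-like receptors of the complex, 2 Ly49 genes stood out by level in NK cells, a choice made after their values were seen. Klra4 was at 1094, 416 and 840 CPM and Klra9 at 705, 340 and 585 CPM, lowest in the aged library. Of 12 such genes with enough UMIs, 5 were called lower and 2 higher in aged than in young NK cells (8.62% and 10.3% of all genes). Clec2d, already counted among the ligand genes, is among those called higher. With AA 4 of 11 were called higher and none lower (5.03% and 9.03%).

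Across the sums of 7 gated cell types in 3 libraries (21 sums, which share libraries and gates), the non-member genes with levels most like a member's were taken from 12650 genes by Pearson's r of log2(CPM + 1). Xcl1 came first for Klrc1 (0.989), Klrc2 (0.989), Klrk1 (0.965) and Klre1 (0.981). Ctsw came first for Klrd1 (0.967), Gzmb for Klrg1 (0.967), and Ncr1 for Klrb1c (0.969) and Klrb1f (0.975). These 4 members thus had the same closest gene, the chemokine gene Xcl1. The second gene followed at 0.980 for Klrc1, 0.981 for Klrc2, 0.962 for Klrk1 and 0.979 for Klre1. These values span all 7 cell types and do not describe the aged to young change. Some sums were small: that of young neutrophils came from 5 cells with 22766 UMIs, none of them from a member. A single UMI weighs heavily in such a sum. Xcl1 was at 5.19, 21.4 and 31.6 CPM in CD8 T cells and 191, 206 and 162 CPM in NK cells. Unlike the 4 members, it was thus not lower in aged than in young NK cells.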

How the data were processed

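Blood mononuclear cells were loaded on the 10x Chromium with the 3′ v3 kit, per the labels' protocols. The files hold deposited, unnormalised UMI counts, and their headers name Cell Ranger 4. Build mm10 and Seurat 3.1.0 come from the submitters' processing notes. Library totals were 64496639 (young), 94944551 (aged) and 80424480 (aged+AA) UMIs. In Python 3.11.15, cells were called from the deposited counts against free RNA (false discovery rate 0.01, from 500 UMIs), kept from 250 genes upwards if mitochondrial UMIs were 10% or less, and cleared of 359, 425 and 473 doublets predicted by Scrublet in scanpy 1.11.5. Gates used marker UMIs and no member gene. UMIs were summed per gate and library and divided by the total (CPM). Intervals were exact Poisson (CPM), binomial (shares) and conditional binomial (ratios) at 95%. A call needed 50 UMIs and a ratio of 1.5. The ratio step was run on simulated independent Poisson counts, the model that its intervals assume. That run could not test spread between cells or animals. All 8 members are named, list genes by UMIs or calls. The members and lists were chosen with earlier results of these data known. Alternatives covered cell calling, mitochondrial limit, doublets, gates, depth, scaling and free RNA. Read assignment among near-identical genes is not given in the sources used here.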

Additional observations from a re-analysis of the deposited data

Results flagged for a closer look

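The aged to young ratio lay on opposite sides of 1 in CD8 T and in NK cells for 4 members, with neither interval holding 1: Klrc1 at 5.67 and 0.712, Klrc2 at 10.2 and 0.784, Klrk1 at 7.58 and 0.675, and Klre1 at 7.71 and 0.828. The difference between the cell types was not tested, since each group is 1 library.

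Outside the NK and T cells, the aged library's 1132 monocytes (Lyz2 and Csf1r RNA) held Klrd1 at 12.8 CPM, Klrk1 at 7.40 CPM and Klrb1f at 4.42 CPM, against 3.48, 0.187 and 0.249 CPM in B cells of the same library. The monocyte gate, unlike the B gate, did not leave out cells with Nkg7 RNA, so monocytes mixed with NK cells could remain. Their part in these levels was not tested. The 125 Klrd1 UMIs were in 41 monocytes, with up to 17 in 1 cell, while the 72 Klrk1 UMIs were in 59. No B cell of that library held more than 1 Klrd1 UMI. All 43 Klrb1f UMIs were in monocytes with Ly6c2 RNA, in 37 of 708 (5.23%, 3.71% to 7.13%) and in 0 of 424 without it. These shares are unthinned, and the cells with Ly6c2 RNA were deeper, at a median of 10015.5 UMIs against 4216. At 1000 UMIs per cell Klrk1 was detected in 0.709% of these monocytes and 0.0247% of B cells, and Klrb1f in 0.0886% and none. Median depth was 8678 UMIs per monocyte and 3124 per B cell. The young and aged+AA libraries had only 47 and 101 monocytes, with 1 Klrk1 UMI each.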

How the results depend on the processing

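No paired analysis was possible because each group is 1 library. Of the recomputed member ratios, 453 stayed within their counting interval, 24 moved beyond it and 1 called ratio reversed: the log2 ratio of Klrk1 in gamma-delta T cells, aged over young, was -0.36 without the cells holding NK genes. In NK cells, the number of members past 1.5-fold, aged over young, was 2 with the stricter gate, with cells of 2000 to 10000 UMIs, without ribosomal and mitochondrial genes and without haemoglobin genes, and 4 by the mean of per-cell CPM. In CD8 T cells the median log2 ratio, aged over young, was 2.33 with doublets kept. For aged+AA over aged it was 0.00468 without ribosomal and mitochondrial genes and -0.40 by the mean of per-cell CPM, and 1 member passed with the stricter gate. In gamma-delta T cells, aged over young, 0 members passed at 5% mitochondrial UMIs, 1 with the stricter gate, with 2000 to 10000 UMIs, without ribosomal and mitochondrial genes and relative to the median gene, 5 with the looser gate and 4 from 20 UMIs, and without cells holding NK genes 0 passed and the median was -0.18. For aged+AA over aged 1 passed with the stricter gate, the looser gate, 2000 to 10000 UMIs and without ribosomal and mitochondrial genes, and 0 without cells holding NK genes, where only 2 members had enough UMIs in either comparison. Uncalled ratios also changed sign: Klrd1 in CD8 T cells under both scalings given with its level, Klrc1 and Klrk1 there by per-cell means, and, without cells holding NK genes, Klrd1 (aged over young, -0.00504) and Klrk1 (aged+AA over aged, 0.35) in gamma-delta T cells. The alternatives on haemoglobin and on NK genes were chosen after seeing the data. The causes were not tested. Depth limits Klrb1c, Klrb1f and Klrg1 outside NK cells and every member in gamma-delta T cells.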
